A study of Mus musculus with 8 samples.

Results

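The genes described here are the carriers that move amino acids and small peptides across cell membranes, measured in the mouse ileum. They were chosen by name, as every gene with a single-symbol probe set whose symbol begins with Slc1a, Slc3a, Slc6a, Slc7a, Slc15a, Slc36a, Slc38a or Slc43a and a digit, without Slc7a11, and this gave 62 of the 17097 genes measured. Of these, Slc6a19os and Slc36a1os are noncoding opposite-strand transcripts of carrier genes, which the name rule also takes in. The samples were ileal tissue from 4 wild-type and 4 Slc51a knockout mice, all male, on a C57BL/6 background, about 2 months old and fasted for 4 h, with 1 Affymetrix 3' expression array per mouse. Slc51a encodes a subunit of the transporter that passes bile acids out of the enterocyte at its basolateral membrane. The labels say that the gene is inactivated and do not say how or in which cells, and whole ileal tissue holds the muscle wall, nerves and immune cells beside the epithelium.

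Dietary protein reaches the enterocyte as free amino acids and as peptides of a few residues. Sodium-coupled, proton-coupled and exchange carriers of the brush border take these up, and exchangers and uniporters of the basolateral membrane pass amino acids on to the blood. Several exchangers are heteromers, in which a heavy subunit of the Slc3 family brings a light subunit of the Slc7 family to the membrane. Related carriers of the Slc1, Slc6 and Slc38 families serve neurotransmitter clearance, osmolyte uptake and glutamine traffic in other cells.

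Values are normalised log2 signals, on which a difference of 1 is a doubling. Every difference is knockout minus wild type with its standard error (SE) and n = 4 per genotype. Adjusted p values come from limma (Benjamini-Hochberg, 17097 genes), with a call at 0.05 or less, here named passing. The Slc51a signal was 11.29 to 11.41 in the wild-type samples and 4.5 to 4.68 in the knockout samples, near the array-wide median of 4.58. A gene whose mean was under that median in both genotypes is called dim here. Hybridization controls, spiked into each sample before hybridization, were lowest on wild type 2, knockout 3 and knockout 4. Their means of 9.03 in wild type and 8.89 in the knockout did not differ beyond the spread (exact permutation test, 2-sided, adjusted p = 0.267 over 4 quality measures). The array medians averaged 4.59 in wild type and 4.57 in the knockout (exact test, adjusted p = 0.114). The Gapdh 3' minus 5' signal averaged 0.25 and 0.13 (exact test, adjusted p = 0.114). The same measure for actin was 0.41 and 0.44 (exact test, adjusted p = 0.314). With 4 arrays per genotype these tests do not exclude a difference in quality. Of 18 measured enterocyte markers 0 were dim.

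Of the 62 genes 17 were lower in the knockout, 1 was higher and 44 did not pass. Lower calls made up 27.4% of the 62 against a background of 12.9% of all genes, and the higher call 1.61% against 17.1%. The median difference was -0.07, against 0.01 over all genes. Among 239 other Slc genes 45 were lower and 27 higher, with a median of -0.02. A fall of at least 1.5-fold was seen in 6 of the 62, where the background is 2.77%, and a rise of that size in 0, where it is 2.05%. Of the 62, 21 were dim and 1 of these 21 passed, so whether the tissue expresses the dim genes was not settled. On leaving out the 3 arrays of lowest hybridization signal (wild type 2, knockout 3 and knockout 4), an alternative chosen after the data were seen, 13 of the 17 remained lower, and Slc36a1, Slc6a8, Slc7a8 and Slc38a10 did not pass.

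**Figure D1:**
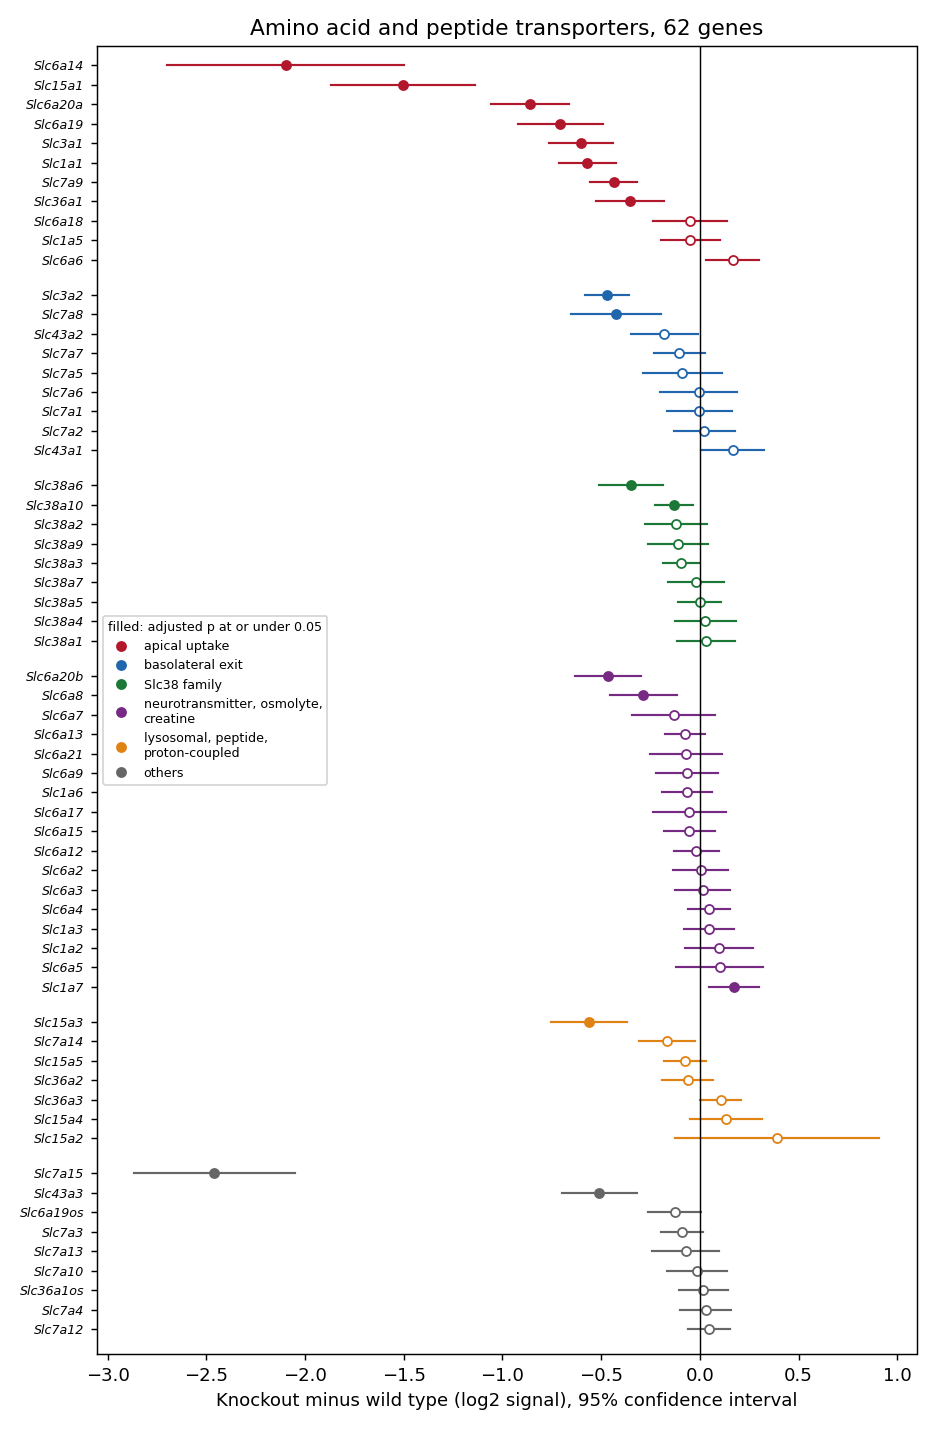
Knockout minus wild type difference of each of the 62 genes on the log2 scale, with its 95% confidence interval from limma, grouped by role; filled points passed an adjusted p of 0.05. The filled points lie on the left, from Slc7a15 at -2.46 to Slc38a10 at -0.13, except Slc1a7 at 0.17.

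Most carriers of the brush border fell. Of 11 measured genes of apical uptake 8 were lower, 0 were higher and 3 did not pass, and the median difference was -0.57. Of all genes 12.9% were lower and 17.1% higher. The groups did not overlap in any of the 8, where the background for this is 12.8% of all genes. Of these 8, 5 fell by at least 1.5-fold, namely Slc6a14, Slc15a1, Slc6a20a, Slc6a19 and Slc3a1. Enterocyte markers were lower in the same samples, with 17 of 18 lower and a median of -0.60, and cell cycle and crypt markers were higher, with 12 of 16 higher, 2 lower and a median of 0.31. Their part in the fall of the carriers was not tested. In whole tissue, fewer cells of a type and less RNA per cell cannot be told apart.

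Slc15a1 encodes the proton-coupled carrier that takes up di- and tripeptides, the main route of peptide absorption. The wild-type samples read 10.12, 10.30, 10.27 and 10.11 and the knockout samples 8.99, 8.81, 8.91 and 8.08. Every knockout sample lay below every wild-type sample, and knockout 4 was the lowest. The gene fell by 1.5 (SE 0.17, adjusted p = 6.36e-05), which is 2.83-fold. On leaving out 1 array or changing the processing the difference stayed between -1.60 and -1.26.

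Slc6a14 encodes a sodium- and chloride-dependent carrier of neutral and cationic amino acids. Its signal was 8.13, 7.18, 6.87 and 7.64 in wild type and 5.91, 5.39, 4.78 and 5.36 in the knockout. This gene was among the more variable ones in both genotypes (SD 0.55 and 0.46), yet the lowest wild-type sample lay above the highest knockout sample. It fell by 2.10 (SE 0.27, adjusted p = 0.000186), or 4.28-fold. A dimmer probe set of the same gene fell by 1.15, and with the mean of both the difference was -1.62.

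Slc6a19 and Slc6a20a encode the sodium-coupled carriers of neutral amino acids and of proline and other imino acids. For Slc6a19 the wild-type samples read 10.20, 10.32, 10.12 and 10.34 and the knockout samples 9.68, 9.42, 9.75 and 9.30. It fell by 0.71 (SE 0.10, adjusted p = 0.000275), with no overlap. Slc6a20a read 10.39, 10.74, 10.62 and 10.46 in wild type and 9.74, 9.81, 9.74 and 9.48 in the knockout. It fell by 0.86 (SE 0.09, adjusted p = 4.68e-05), again with every knockout sample below every wild-type sample. The neighbouring paralogue Slc6a20b fell by 0.46 (SE 0.08), from 4.56 to 4.10, both dim, so this fall may be understated. Its other probe set fell too.

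Slc7a9 and Slc3a1 are the light and the heavy subunit of the brush border exchanger for cystine and cationic amino acids. The light subunit Slc7a9 was at 11.47, 11.51, 11.43 and 11.43 in wild type and at 11.16, 11.01, 10.99 and 10.94 in the knockout, a fall of 0.44 (SE 0.05, adjusted p = 0.000141). The heavy subunit Slc3a1 was at 10.45, 10.48, 10.42 and 10.34 and at 10.02, 9.74, 9.85 and 9.67, a fall of 0.60 (SE 0.07, adjusted p = 0.000131). Neither gene's groups overlapped, and the wild-type samples of each lay close together. Slc1a1, the high-affinity carrier of glutamate and aspartate, was at 9.66, 9.70, 9.62 and 9.83 in wild type and at 9.03, 9.21, 9.05 and 9.23 in the knockout. It fell by 0.57 (SE 0.07, adjusted p = 8.18e-05), and its other probe set by 0.64. Slc36a1, a proton-coupled carrier of small neutral amino acids found at the brush border and on lysosomes, read 6.25, 6.45, 6.31 and 6.28 against 5.92, 6.20, 5.94 and 5.83. It fell by 0.35 (SE 0.08, adjusted p = 0.00531), with groups that were apart but close. Without the 3 arrays the difference was -0.22 (adjusted p = 0.117).

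The other 3 apical genes, Slc1a5, Slc6a6 and Slc6a18, did not pass. Slc1a5, an exchanger of glutamine and other neutral amino acids, was at 6.63, 6.93, 6.82 and 6.94 in wild type and at 6.75, 6.82, 6.81 and 6.74 in the knockout. Its groups overlapped, and the 95% interval of the difference ran from -0.20 to 0.10. Slc6a6, the taurine carrier, was at 9.81, 9.94, 9.85 and 9.94 in wild type and at 10.18, 10.04, 10.07 and 9.93 in the knockout. The difference was 0.17 (SE 0.06, adjusted p = 0.0598), with 3 knockout samples above all wild-type samples and knockout 4 among them. It passed without knockout 4 (0.21, adjusted p = 0.0199), with median centring (0.19, 0.0268), without the 3 arrays (0.24, 0.0490) and in 3 other alternatives, and remained positive in all of them. In the remaining alternatives it did not pass, with the mean of probe sets at 0.10 (adjusted p = 0.139). Across all alternatives the difference ran from 0.08 to 0.24, with adjusted p values up to 0.369. A dimmer probe set of Slc6a6 was higher by 0.21 (adjusted p = 0.0325 over all probe sets with a single symbol). Its still dimmer probe sets stood at 0.07 and -0.03 and did not pass. Slc6a18, a neutral amino acid carrier known mainly from the kidney, was dim.

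**Figure D2:**
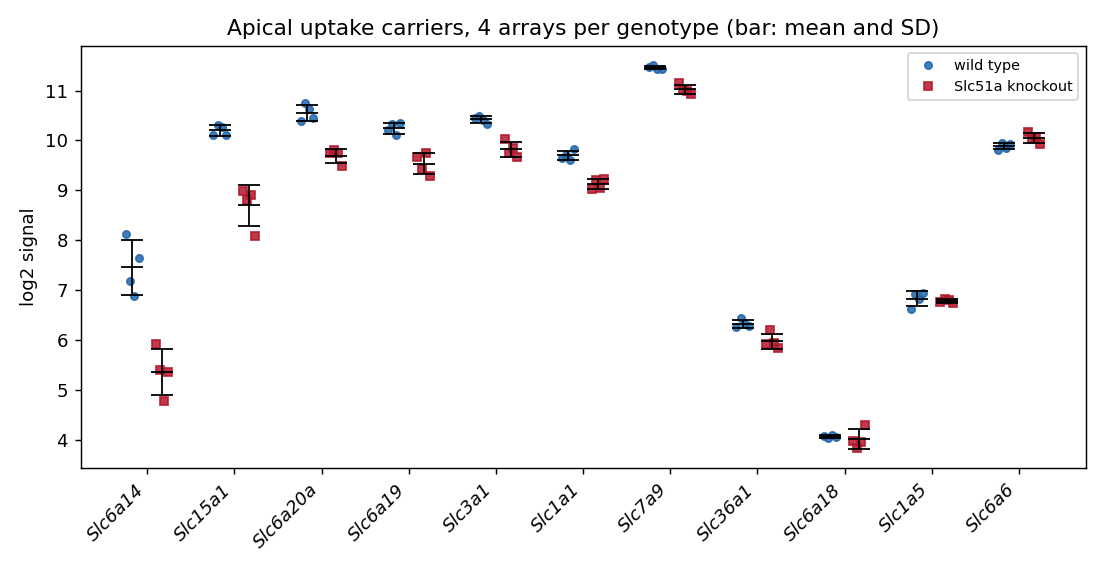
Log2 signal of the 11 genes of apical uptake in each array, blue circles for wild type and red squares for the Slc51a knockout, with the mean and SD of 4 samples. In the 8 genes on the left the groups do not overlap, whereas Slc6a18, Slc1a5 and Slc6a6 overlap.

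The apical carriers were also set against the mean of the 18 enterocyte markers on the same arrays, which went from 10.10 to 9.38, a difference of -0.71. The markers themselves ranged from -2.74 to -0.08, so this mean stands for no single marker. Each comparison used an exact permutation test, 2-sided, with adjustment over the 11 genes, for which the smallest unadjusted p that 4 against 4 samples allow is 0.0286. It takes in the spread between samples and not that between markers. Nothing is read from the value of Slc6a18, which was dim. Slc6a14 fell further than the mean by 1.38 and Slc15a1 by 0.79 (adjusted p = 0.0449 for both by the exact test), and 1 of the 18 markers fell further than either gene. Slc7a9 and Slc36a1 stood at 0.28 and 0.36 above the mean (adjusted p = 0.0449 for both by the exact test), but within the range of the markers, of which 7 fell less than Slc7a9 and 6 less than Slc36a1. Slc1a5 and Slc6a6 stood at 0.67 and 0.88 above the mean (adjusted p = 0.0449 for each by the exact test), and all 18 marker differences were below theirs. The marker that fell least, Krt20, was at -0.08 (SE 0.06), close to Slc1a5 at -0.05 (SE 0.07). The relative change was 0.01 for Slc6a19 (exact test, adjusted p = 0.971), -0.15 for Slc6a20a (0.175), 0.11 for Slc3a1 (0.118) and 0.14 for Slc1a1 (0.220), none beyond the spread. An alternative chosen after the data were seen used the median marker signal on each array in place of the mean. That signal changed by -0.86, and Slc3a1 passed too, at 0.26 above it (exact test, adjusted p = 0.0393). It follows the markers of middle signal and is not the median of the 18 marker differences, which was -0.60. Slc3a1, at -0.60, lay in the middle of the markers, of which 9 fell further and 9 fell less.

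The bases upstream of 4 of the apical genes are shown because these genes fell together. They are the 250 bases before the annotated start in RefSeq, build GRCm38.p6, read 5′ to 3′ along the gene, and 44 of the 62 genes had such a window. Capitals mark matches, on either strand, to CAAAGTCCA (HNF4A), GTTAAT (the core of the HNF1 site), AGGTCA (the core of nuclear receptor sites) or TATAAA (the TATA box), the last 3 chosen after the data were seen. For Slc7a9 the first of 2 annotated starts is shown.
Slc3a1 (chr17:85028097-85028346, plus strand): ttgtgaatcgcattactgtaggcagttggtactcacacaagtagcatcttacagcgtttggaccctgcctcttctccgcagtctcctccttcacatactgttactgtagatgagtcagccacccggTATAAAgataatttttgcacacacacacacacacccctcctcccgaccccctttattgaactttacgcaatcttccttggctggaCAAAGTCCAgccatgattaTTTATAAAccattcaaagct
Slc7a9 (chr7:35448842-35449091, plus strand): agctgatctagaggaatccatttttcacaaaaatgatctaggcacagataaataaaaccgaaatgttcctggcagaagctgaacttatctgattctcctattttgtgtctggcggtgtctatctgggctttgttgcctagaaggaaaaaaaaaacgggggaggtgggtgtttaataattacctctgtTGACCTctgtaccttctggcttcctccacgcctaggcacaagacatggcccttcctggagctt
Slc6a20a (chr9:123678833-123679082, minus strand): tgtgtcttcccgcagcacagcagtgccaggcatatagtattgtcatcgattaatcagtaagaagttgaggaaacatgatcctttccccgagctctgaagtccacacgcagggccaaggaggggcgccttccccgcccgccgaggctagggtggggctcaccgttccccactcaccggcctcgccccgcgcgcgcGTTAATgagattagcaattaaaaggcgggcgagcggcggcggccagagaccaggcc
Slc15a1 (chr14:121505255-121505504, minus strand): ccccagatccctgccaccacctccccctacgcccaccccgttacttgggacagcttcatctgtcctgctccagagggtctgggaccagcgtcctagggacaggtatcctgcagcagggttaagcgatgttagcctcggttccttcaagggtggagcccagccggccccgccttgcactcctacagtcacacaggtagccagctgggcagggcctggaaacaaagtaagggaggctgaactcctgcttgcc
The HNF4A letters were present in 1 of the 14 lower genes with a window, Slc3a1, in 0 of 30 others and in 0.384% of all 32851 windows. GTTAAT was present in 3 of 14, 2 of 30 and 6.43% of all windows, AGGTCA in 3 of 14, 5 of 30 and 14.02%, and TATAAA in 2 of 14, 4 of 30 and 12.4%. The searched letters TGATGNAA (the ATF4 and C/EBP element) were in 0 of 14, 2 of 30 and 3.45%, TGACNNNGC (the antioxidant response core) in 0 of 14, 7 of 30 and 10.2%, and the full HNF1 site in 0 of 14, 0 of 30 and 0.0609%. The Slc15a1 window held none of these letters. A gene was counted when any of its windows matched, whereas the percentages are shares of single windows. Genes with several annotated starts thus had more places to match, and the counts and percentages are not in the same unit. A match is a description of the sequence and not evidence of binding.

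Of 9 measured genes of basolateral exit and exchange 2 were lower, 0 were higher and 7 did not pass, with a median difference of -0.09. Of all genes 12.9% were lower and 17.1% higher. The difference between the apical and the basolateral genes was not tested. The 2 lower genes were Slc3a2, the heavy subunit shared by several exchangers, and Slc7a8, a light subunit that exchanges neutral amino acids.

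Slc3a2 was at 9.28, 9.21, 9.12 and 9.08 in wild type and at 8.72, 8.70, 8.70 and 8.70 in the knockout. The 4 knockout samples lay close together and below every wild-type sample. The gene fell by 0.47 (SE 0.05, adjusted p = 6.07e-05). Slc7a8 read 6.27, 6.34, 6.38 and 6.16 in wild type and 5.54, 6.09, 5.98 and 5.85 in the knockout. It fell by 0.42 (SE 0.10, adjusted p = 0.00927) with knockout 1 the lowest, and without the 3 arrays the difference was -0.46 (adjusted p = 0.0734).

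The other light subunits of Slc3a2 in this group, Slc7a5, Slc7a6 and Slc7a7, did not pass. Slc7a7, which exports cationic amino acids in exchange for neutral ones and sodium, was at 9.87, 9.81, 9.64 and 9.77 in wild type and at 9.74, 9.67, 9.67 and 9.60 in the knockout. Its difference was -0.10 with a 95% interval from -0.23 to 0.02 (adjusted p = 0.220), and it passed under cyclic loess normalisation (-0.19, adjusted p = 0.0296). Slc7a6, a related exchanger, was at 5.0, 5.08, 5.31 and 5.10 and at 5.07, 5.09, 4.96 and 5.35, with an interval from -0.20 to 0.19. The groups of both genes overlapped. Slc7a5, the exchanger of large neutral amino acids in dividing cells, was at 6.26, 5.92, 6.10 and 6.36 and at 5.96, 6.02, 6.15 and 6.16, with an interval from -0.29 to 0.11.

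Since heavy and light subunits work as a pair, the change of each heavy subunit was compared with that of its partners within arrays, for 5 pairs, by an exact permutation test, 2-sided, with adjustment over the 5. Slc3a2 fell further than Slc7a7 by 0.37, a difference of changes seen in all 4 knockout samples (exact test, adjusted p = 0.0476). It also fell further than Slc7a6, by 0.46 (exact test, adjusted p = 0.0476), and stood at -0.38 relative to Slc7a5 (0.0714), where the samples overlapped. The Slc7a6 mean, 5.12 in both genotypes, lay near the array-wide median of 4.58, so a change of that gene may be understated. Against Slc7a8 the difference of changes was -0.05 (exact test, adjusted p = 0.714). In the brush border pair, Slc3a1 fell further than Slc7a9 by 0.16 (exact test, adjusted p = 0.0476). These differences show unequal changes of signal on the array and say nothing about the ratio of the proteins.

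**Figure D3:**
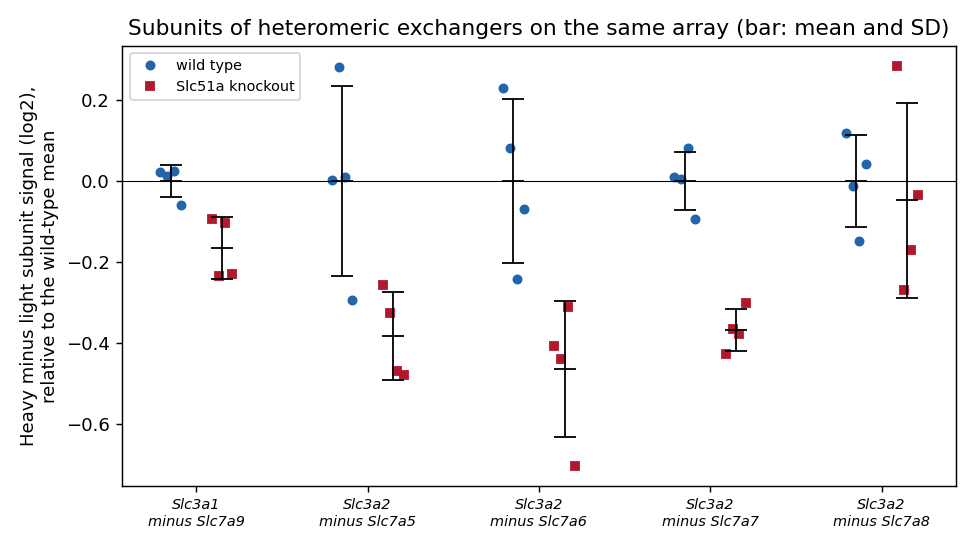
Log2 signal of the heavy subunit minus that of the light subunit on the same array, relative to the wild-type mean, for 5 pairs, with the mean and SD of 4 samples. The knockout samples lie below all wild-type samples for Slc3a1 with Slc7a9 and for Slc3a2 with Slc7a6 and Slc7a7, and overlap them for Slc7a5 and Slc7a8.

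The uniporters and cationic carriers of this group did not pass. Slc43a2, a uniporter of large neutral amino acids at the basolateral membrane, was at 9.11, 9.26, 9.15 and 9.0 in wild type and at 8.77, 9.07, 9.05 and 8.91 in the knockout (-0.18, SE 0.08, adjusted p = 0.105). The groups overlapped. Slc43a2 passed under cyclic loess normalisation (-0.26, adjusted p = 0.0265), with the hybridization controls as a covariate (-0.27, adjusted p = 0.0201) and with the replicate number as a block (adjusted p = 0.0456). It did not pass with the mean of probe sets (-0.12, adjusted p = 0.172). Its dimmer probe sets stood at 0.07 and -0.26 and did not pass. Slc43a1, a related uniporter, was at 4.62, 4.74, 4.84 and 4.64 and at 4.85, 4.93, 5.01 and 4.71 (0.17, SE 0.07, adjusted p = 0.115). Without knockout 4 its difference was 0.22 (adjusted p = 0.0331), and with the block the adjusted p was 0.0382. Slc7a1, the carrier of arginine and lysine, was at 8.72, 8.75, 8.63 and 8.86 and at 8.69, 8.58, 8.77 and 8.93, with equal means of 8.74 and an interval from -0.17 to 0.17. Slc7a2, its relative, was dim.

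**Figure D4:**
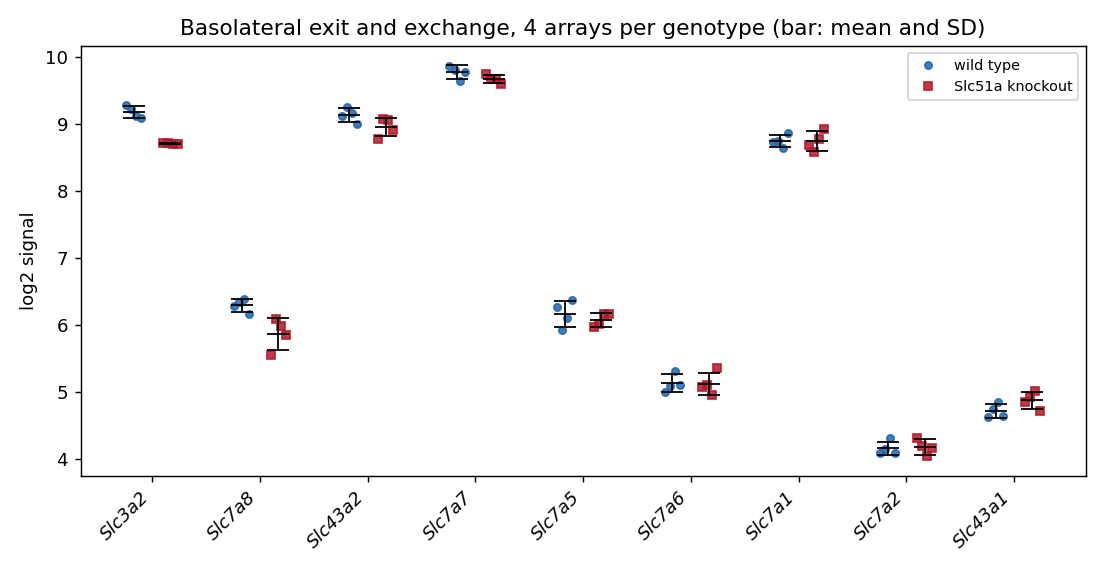
Log2 signal of the 9 genes of basolateral exit and exchange in each array, blue circles for wild type and red squares for the Slc51a knockout, with the mean and SD of 4 samples. The groups are apart for Slc3a2 and Slc7a8 and overlap for the other genes.

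The largest fall of all 62 genes was in Slc7a15, a light subunit known as a carrier that prefers aromatic amino acids. It was at 7.19, 7.5, 7.34 and 7.12 in wild type and at 4.66, 4.88, 5.41 and 4.35 in the knockout. The knockout samples spread around the array-wide median of 4.58, with knockout 3 the highest, so the size of the fall may be understated. The gene fell by 2.46 (SE 0.18, adjusted p = 6.54e-06), or 5.50-fold, and by -2.66 to -2.30 across the alternatives. A single probe set measured it.

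The Slc38 family is known for sodium-coupled carriers of glutamine and other neutral amino acids. Its genes were taken here by symbol and not by what each one carries. Of 9 Slc38 genes 2 were lower, 0 were higher and 7 did not pass, with a median of -0.10. Of all genes 12.9% were lower and 17.1% higher. Slc38a6 fell by 0.35 (SE 0.07, adjusted p = 0.00400), and by 0.20 with the mean of its probe sets, of which the dimmer did not pass. The Slc38a10 difference was -0.13 (SE 0.04, adjusted p = 0.0423), and 1 of its 7 other probe sets passed in the same direction. That call was lost in 7 of 8 fits that left out 1 array, all but the one without wild type 2 (adjusted p from 0.0592 to 0.115), and was lost with median centring (0.0960), the replicate block (0.0713) and the hybridization covariate (0.124). The other 7 genes, among them Slc38a1 and Slc38a2, ranged from -0.12 to 0.03.

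The next list is also set beside the background of 12.9% lower and 17.1% higher. Of 17 neurotransmitter, osmolyte and creatine carriers, 2 were lower, 1 was higher and 14 did not pass, with a median of -0.05. The lower genes were Slc6a20b and Slc6a8. Slc6a20b, given above, was counted in this list although it is the paralogue of the imino acid carrier gene Slc6a20a. Slc6a8, the creatine carrier, read 9.69, 9.83, 9.53 and 9.57 in wild type and 9.50, 9.24, 9.42 and 9.31 in the knockout. The Slc6a8 groups were apart by little, and the gene fell by 0.29 (SE 0.08, adjusted p = 0.0152), as did its other probe set by 0.30. Without the 3 arrays it did not pass (-0.22, adjusted p = 0.131). The higher gene was Slc1a7, a glutamate carrier known from the retina, which rose by 0.17 (SE 0.06, adjusted p = 0.0423) from 4.47 to 4.64. These levels lie on both sides of the array-wide median. The call was lost in 6 of 8 fits that left out 1 array, all but those without wild type 4 or knockout 2, with adjusted p values up to 0.122, and without the 3 arrays (0.13, adjusted p = 0.270). It was also lost with eBayes trend and robust (0.0518), array weights (0.0589) and the hybridization covariate (0.0891). Slc6a4, the serotonin carrier, was at 7.39 ± 0.07 and 7.44 ± 0.02 (SD, n = 4) and did not pass, with an interval from -0.06 to 0.15. The other genes not passing ranged from -0.13 to 0.10, and 8 of the 14 were dim.

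Of 7 lysosomal, further peptide and proton-coupled carriers, 1 was lower, where the background is 12.9% of all genes. Slc15a3, a lysosomal carrier of histidine and peptides known from macrophages, was at 4.78, 4.72, 5.11 and 5.0 in wild type and at 4.30, 4.36, 4.48 and 4.24 in the knockout. It fell by 0.56 (SE 0.09, adjusted p = 0.000615), with every knockout sample under the array-wide median. Macrophage and dendritic cell markers were lower in the same samples, 7 of 12 with 0 higher and a median of -0.42, and their mean signal was 7.31 to 7.64 in wild type and 7.05 to 7.22 in the knockout. Their part in the fall of Slc15a3 was not tested. Slc15a2, the high-affinity peptide carrier, ranged from 4.17 to 5.52 in wild type and from 5.12 to 5.67 in the knockout and did not pass (0.39, SE 0.23, adjusted p = 0.255).

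Of the 9 genes in no role list, 2 passed, where 30.0% of all genes did. Besides Slc7a15 this was Slc43a3, a carrier of purine nucleobases, which was at 5.25, 5.36, 5.26 and 5.37 in wild type and at 4.66, 4.71, 5.09 and 4.75 in the knockout. Its groups did not overlap, and it fell by 0.51 (SE 0.09, adjusted p = 0.00102). The other 7 ranged from -0.13 to 0.04, and both opposite-strand transcripts were among them and were dim.

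Markers of further cell types were also counted, beside a background over all genes of 12.9% lower and 17.1% higher. Smooth muscle markers were lower in 11 of 11 genes (median -0.84), T lymphocyte markers in 12 of 14 with 0 higher (median -0.53), B lymphocyte and plasma cell markers in 4 of 8 with 0 higher (median -0.27) and enteric neuron and glia markers in 5 of 10 with 0 higher (median -0.13). Of 6 goblet markers 1 was higher and 2 were lower, of 12 enteroendocrine markers 4 were higher and 3 lower, and of 4 Paneth markers none passed. As the mean of a list on each array, enterocyte markers lay between 10.04 and 10.21 in wild type and between 9.34 and 9.48 in the knockout, and smooth muscle markers between 9.24 and 9.63 and between 8.52 and 8.77. The 11 apical genes lay between 8.77 and 8.87 and between 8.08 and 8.30 on the same measure, and the 9 basolateral genes between 7.01 and 7.05 and between 6.85 and 6.93. The part of these cell types in the changes of the carriers was not tested.

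**Figure D5:**
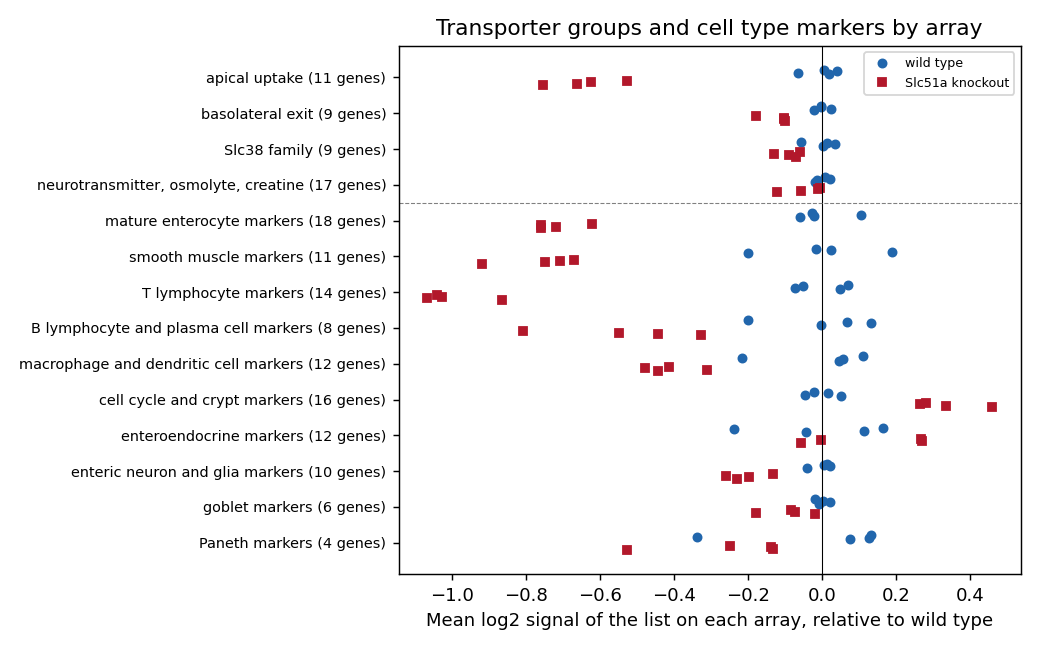
Mean log2 signal of 4 transporter groups and 10 lists of cell type markers on each array, relative to the wild-type mean of the list; blue circles are wild type and red squares the Slc51a knockout. Apical uptake genes lie at -0.75 to -0.53 in the knockout and enterocyte markers at -0.76 to -0.62, while basolateral genes lie at -0.18 to -0.10 and cell cycle and crypt markers at 0.27 to 0.46.

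Among the partners of the carriers, the scaffold genes of the brush border fell. Of 10 measured genes of partners and driving forces 4 were lower, 0 were higher and 6 did not pass, with a median of -0.13. Of all genes 12.9% were lower and 17.1% higher. Pdzk1, a scaffold that binds the tails of apical carriers, was at 9.23, 9.51, 9.51 and 9.23 in wild type and at 7.49, 7.34, 7.38 and 7.0 in the knockout. It fell by 2.07 (SE 0.11, adjusted p = 7.54e-07), or 4.19-fold, with the groups far apart. The related scaffold Slc9a3r1 fell by 0.47 (SE 0.06, adjusted p = 0.000255). The lysosomal cystine exporter Ctns and the potassium channel Kcnq1 fell by 0.21 each (adjusted p = 0.0156 and 0.0327), the Ctns level going from 4.60 to 4.39 and the Kcnq1 groups overlapping. Both calls were lost without the 3 arrays (0.0902 and 0.262) and with the hybridization covariate (0.0885 and 0.170). That of Kcnq1 was also lost with median centring (0.0530) and without wild type 1 (0.0804), wild type 4 (0.0937), knockout 3 (0.0912) or knockout 4 (0.0767). The accessory protein gene Cltrn and the aromatic amino acid carrier gene Slc16a10 were dim, at 3.62 and 3.66 and at 4.26 and 4.21.

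Of 11 measured genes of the amino acid stress response 3 were higher, 1 was lower and 7 did not pass, where the background is 17.1% higher and 12.9% lower. Psat1 and Phgdh, enzymes of serine synthesis, rose by 1.06 (SE 0.08, adjusted p = 9.46e-06) and 0.44 (SE 0.11, adjusted p = 0.00897), and Asns, the asparagine synthetase, rose by 0.74 (SE 0.11, adjusted p = 0.000529). Asns was at 8.42, 7.82, 7.96 and 8.17 in wild type and at 8.82, 8.74, 8.79 and 8.98 in the knockout, with no overlap. Atf4, the transcription factor of this response, fell by 0.27 (SE 0.07, adjusted p = 0.0117), but did not pass when its probe sets were averaged (-0.08, adjusted p = 0.357) or with the hybridization covariate (0.0566). Among the genes that did not pass, Ddit3, Trib3, Chac1 and Sesn2 were at -0.20, -0.10, -0.07 and -0.005. Shmt2, Eif2ak4 and Aldh18a1 were at 0.25, 0.08 and 0.07, and the Shmt2 groups did not overlap (adjusted p = 0.0581 by limma). The median difference of the 11 genes was 0.07.

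Of 12 measured genes of amino acid sensing and mTORC1, 4 were higher, 3 were lower and 5 did not pass. Of all genes 17.1% were higher and 12.9% lower. The GTPase gene Rragd fell by 0.57 (SE 0.12, adjusted p = 0.00434) and Sesn1, a sestrin, by 0.52 (SE 0.10, adjusted p = 0.00166). Lamtor2 and Lamtor1, subunits of the lysosomal anchor of mTORC1, rose by 0.28 (adjusted p = 0.00123) and 0.20 (adjusted p = 0.00536). The kinase gene Mtor rose by 0.23 (adjusted p = 0.00446). Sesn3, another sestrin, fell by 0.24 (adjusted p = 0.0208) with overlapping groups, and did not pass with the mean of probe sets (-0.01, 0.919), without wild type 2 (0.0602), wild type 3 (0.0635) or knockout 3 (0.0609), without the 3 arrays (0.271) or with the hybridization covariate (0.0710). Rptor, an mTORC1 subunit named after its values were seen to complete the count, rose by 0.24 (adjusted p = 0.0259). It did not pass without wild type 1 (0.0519), wild type 3 (0.0613), knockout 1 (0.0604), knockout 2 (0.0540) or knockout 3 (0.0562), without the 3 arrays (0.115) or with the hybridization covariate (0.0536). With the mean of probe sets the Rragd difference was -0.26. The calls of Lamtor2 (0.10, adjusted p = 0.225) and Mtor (0.04, adjusted p = 0.446) were lost with that mean, that of Lamtor1 was lost with cyclic loess normalisation (0.0839), and those of Rragd and Mtor without the 3 arrays (0.0542 and 0.0695).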

How the data were processed

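Total RNA from the ileum of 8 mice, 4 per genotype, was labelled from 250 ng by a 3' in vitro transcription kit and measured on the Affymetrix GeneAtlas system, as the labels' protocols state. The values deposited by the authors are log2 signals per probe set, and the submitters' processing notes name RMA, without a version. RMA compresses low signals, so changes near the floor are understated. No scan batch could be tested.

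Of 45037 probe sets other than controls, 28898 had 1 gene symbol in the platform annotation, of which 28689 were updated by Entrez identifier to RefSeq of GRCm38.p6. The probe set with the highest mean over the 8 arrays stood for its gene, without a filter on dim probe sets. For 27 of the 62 genes other probe sets existed. Of 6 passing genes with others, 5 had another passing in the same direction and 0 in the opposite one.

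The difference between genotypes was fitted by limma 3.58.1 (R 4.3.3) with 2-sided tests. The same fit was then run on simulated data drawn with the means and spreads of the measured genes. Whether the numbers of the labels pair the samples was not settled. Deviations of same-numbered samples correlated at 0.22, -0.05, 0.11 and 0.16, and these values were not tested. Wild type 1 and wild type 4 correlated most with the knockout sample of the same number, and wild type 2 and wild type 3 with another. The labels call the samples biological replicates. Every passing carrier is named, and 18 epithelial carriers are given whatever their values. The members and lists were chosen with earlier results of these data known. Figures were drawn with matplotlib 3.10.9.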

Additional observations from a re-analysis of the deposited data

How the results depend on the processing

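The 17 lower calls among the 62 genes became 16 without dim genes, 17 with quantile normalisation, 16 with median centring, 20 with cyclic loess, 17 with the mean of probe sets, 18 with eBayes trend and robust and 17 with array weights. With the replicate number as a block, a pairing that was not settled, 17 were lower and 2 higher, and 16 of the lower genes were shared. Leaving out 1 array gave 16 to 18 lower and 0 to 2 higher genes. The count of higher genes, 1, was 2 with median centring and 0 with the covariate of hybridization controls or at a threshold of 0.01. Requiring at least 1.5-fold left 6 lower genes, 0 higher genes, 5 apical genes, and 474 lower and 351 higher of all genes. Over all genes the 2210 lower calls were 1446 at a threshold of 0.01 and 1414 without the 3 arrays of lowest hybridization signal. That fit and the covariate were added after the data were seen. The 8 lower apical genes were 8 in every fit that left out 1 array and 7 without the 3 arrays. The pair Slc3a2 and Slc7a5 passed with quantile normalisation (-0.45) and cyclic loess (-0.45, exact test adjusted p = 0.0357 for both). For fits that left out 1 array only the difference is given, without a test result. This pair's difference then lay between -0.48 and -0.29 and that of Slc3a1 and Slc7a9 between -0.19 and -0.14. It lay between -0.54 and -0.38 for Slc7a6, between -0.40 and -0.34 for Slc7a7 and between -0.16 and 0.03 for Slc7a8. Of the 17 lower genes, 13 passed under every alternative that tested them at a threshold of 0.05 with no minimum fold; Slc6a20b, 1 of the 13, was not tested without dim genes. Precision is limited by having 4 arrays per genotype.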

Other observations

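Beside the carriers described, a second probe set of Slc7a4, a gene of the cationic carrier branch, was higher by 0.22 (SE 0.07, adjusted p = 0.0498 over all probe sets with a single symbol), while its brighter probe set differed by 0.03 and did not pass. Of 21 carriers that did not pass and had further probe sets, Slc7a4 and Slc6a6 were the 2 with another probe set that did.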
